A study of Homo sapiens with 6 samples.

Results

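The 10 genes described here are the immediate early genes EGR1, FOS, FOSB, FOSL1, FOSL2, JUN, JUNB, JUND, IER2 and IER3, taken by symbol from a table of 58735 genes. All 10 were found once each and all 10 passed the filter on low counts. The libraries came from Huh7, an established human hepatocellular carcinoma line kept in serum-containing RPMI-1640 medium. In 3 libraries the cells carried a short hairpin RNA against ITGB5, the integrin beta 5 subunit (shITGB5), and in 3 they carried a control hairpin (shcontrol). Every other condition that the labels give was shared by both groups. Of the hairpins’ number and sequence and the time of harvest, none is given in the sources used here.

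Immediate early genes are switched on within minutes of a growth factor, adhesion or stress signal, without any new protein being made. EGR1 is a zinc finger transcription factor, and the JUN and FOS proteins pair through a leucine zipper to form the transcription factor AP-1. A JUN protein can pair with another JUN protein, whereas a FOS protein needs a JUN partner. IER2 and IER3 are small early-response proteins, and IER3 is known for its part in cell survival. In liver, JUN is required for hepatocyte survival in the embryo and for regeneration.

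The promoters of these genes are known to carry short elements read by serum response factor, CREB and AP-1 itself, and they are shown here because 6 of the 10 genes rose together. RefSeq promoter windows (GRCh38.p14), which run from 250 bases before to 50 after the RefSeq start (not always the gene bound of the table), were found for 8 of the 10 genes, all except FOSL1 and IER3. All 8 held TGACG, the core of the cyclic AMP response element, on either strand, against 24.6% of 35116 promoters of the same length. In EGR1, FOS, FOSB and FOSL2 the copy nearest to the start lay between positions -66 and -56 (position 1 is the first transcribed base). The 30 bases around the copy nearest to and before the start read as follows, with TGACG or its reverse complement CGTCA in capitals.
EGR1: atatggccatgtaCGTCAcgacggaggcgg
FOS: gtggttgagcccgTGACGtttacactcatt
FOSB: agcaaggggcgggTGACGtaagcagggggg
FOSL2: tggagtctggggtTGACGtgagtgaatcca
JUN: ggagtctccatggTGACGggcgggcccgcc
JUNB: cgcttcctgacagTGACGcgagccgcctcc
JUND: tgcaaatgagcgaCGTCAcccgcacccaat
IER2: ccacccccgccccCGTCAcgccaccatcga

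These stretches lie at chr5:138465400-138465429 (EGR1, plus strand), chr14:75278751-75278780 (FOS, plus), chr19:45467923-45467952 (FOSB, plus) and chr2:28392779-28392808 (FOSL2, plus). The others lie at chr1:58784154-58784183 (JUN, minus strand), chr19:12791336-12791365 (JUNB, plus), chr19:18281692-18281721 (JUND, minus) and chr19:13150258-13150287 (IER2, plus). TGACG was searched after these promoters had been read, so its share is no test, and a match is a description of letters, not of a bound site. It stood in genes that rose (EGR1, JUN, JUNB, JUND and IER2) and in genes that did not pass the test below (FOS, FOSB and FOSL2). It thus did not set the genes that rose apart.

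Full-length elements were less common. The full palindrome TGACGTCA, searched on both strands and containing TGACG, was found in JUND alone of the 8 (1.85% of all promoters). The CArG box, the site of serum response factor, was found in EGR1 alone (1.29% of all promoters), which held 2 copies. Bases further than 250 before the start were not searched, so a gene with no match here may hold an element further upstream. TATAAA was found in FOS, FOSB and JUNB (11.5% of all promoters), TGANTCA, the AP-1 site, in FOSL2 (7.71%), and GCGNGGGCG, an EGR site, in EGR1 itself (9.43%). JUN held TGACATCA, the variant AP-1 site through which JUN is known to act on its own promoter (2.61% of all promoters), followed by a MEF2 site (0.572%). Both of these were searched after the sequence had been read. The stretches are shown with the element in capitals.
EGR1, upstream CArG box: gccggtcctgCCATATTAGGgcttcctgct
EGR1, downstream CArG box: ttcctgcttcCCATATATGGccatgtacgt
JUND, palindrome: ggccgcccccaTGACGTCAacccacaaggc
JUN, variant AP-1 site: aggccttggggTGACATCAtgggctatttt
JUN, MEF2 site: acatcatgggCTATTTTTAGgggttgactg

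Totals lay between 15777922 and 18011313 counts a library. The targeted gene was checked ahead of the results: ITGB5 lay at 204.7, 213.8 and 216.9 CPM (counts scaled to the library total with TMM factors) in the controls and at 173.1, 181.0 and 174.3 CPM with the hairpin, 16.8% lower (edgeR, adjusted p = 2.13e-09), so most of the transcript remained. The mitochondrial share of counts was 3.46% to 3.54% in the controls and 3.24% to 3.29% with the hairpin. Of 13 hepatocyte markers, which include ALB and AFP, 8 rose and none fell, beside 8.31% and 6.74% of all genes tested. The summed level of the 13 was 7113 to 7262 CPM in the controls and 8039 to 8211 CPM with the hairpin. Of 6 fibroblast and stellate markers, 5 were measured and 1 (LUM) rose, with a summed level of 289.4 to 302.9 CPM in the controls and 323.8 to 333.3 CPM with the hairpin, although DCN was at or near 0. Of 4 endothelial and 4 blood markers, PECAM1 (3.55 to 5.63 CPM in the controls and 3.95 to 5.28 CPM with the hairpin) and CD14 (30.1 to 31.5 CPM and 33.8 to 35.9 CPM) were measured, and neither passed the test. KDR was at 0 in all 6 libraries, and VWF, CDH5, PTPRC, CD3E and HBB stayed at or below 0.242 CPM. The part that these shifts have in the results below was not tested.

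Of the 10 immediate early genes, 6 rose with the ITGB5 hairpin, none fell and 4 did not pass the test. The 10 were chosen with earlier results of these data known. Across all 16577 genes tested, 8.31% rose, 6.74% fell and 15.1% passed in either direction (edgeR quasi-likelihood test, Benjamini-Hochberg adjusted p under 0.05). The genes that rose were all 3 JUN family members (JUN, JUNB, JUND), both IER genes and EGR1, by 13.1% (JUNB) to 49.9% (EGR1). The 4 that did not pass were the 4 FOS family members. All 3 hairpin libraries lay above all 3 controls for 7 of the 10 genes, against 14.7% of all genes tested. The median log2 change was 0.36 over the 10 genes, against 0.00 over all genes tested. A frequent rise was not particular to the 10, since 8 of the 13 hepatocyte markers also rose. Since bulk RNA was measured, a higher share of expressing cells and more transcript per cell cannot be told apart. Separate cultures for the 3 libraries of each group are not stated in the labels, so each p-value measures spread among these libraries only, and that spread may be technical.

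**Figure D1:**
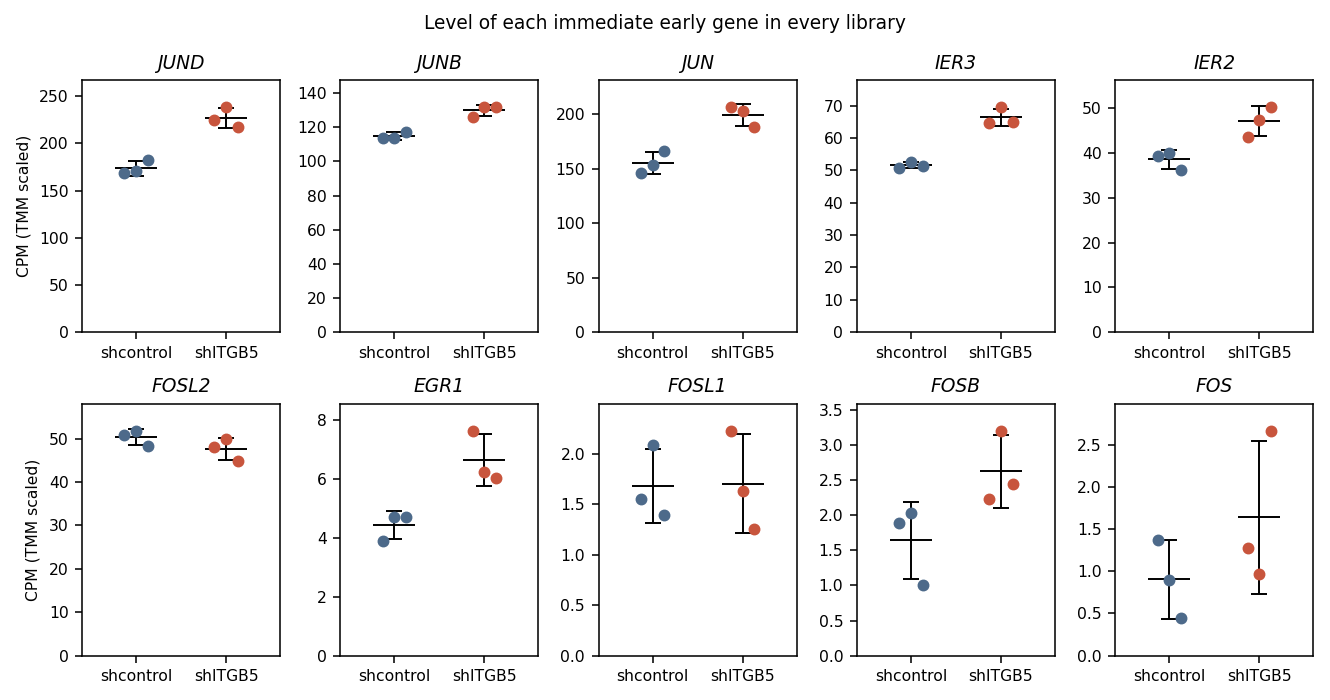
Level of each gene in every library, in CPM with TMM scaling, on axes that start at 0 and differ between panels. Points are libraries, the long bar is the group mean and the error bars are 1 SD (n = 3). The groups stand apart for JUND, JUNB, JUN, IER3, IER2, EGR1 and FOSB, and overlap for FOSL2, FOSL1 and FOS.

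JUND, which encodes the JUN family protein that resting cells also carry, was the most abundant member and the one with the smallest adjusted p. JUND (ENSG00000130522, chromosome 19, 18279760 to 18281622, minus strand) lay at 168.3, 170.3 and 182.9 CPM in the controls and at 224.3, 238.3 and 217.6 CPM with the hairpin. The lowest hairpin library was 1.19 times the highest control. The log2 change was 0.38 (SE 0.034, edgeR adjusted p = 6.61e-14). JUND was the only one of the 10 that also passed when the change was tested against a minimum of 1.2-fold (edgeR adjusted p = 0.00948).

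JUN, which encodes the JUN protein phosphorylated by the JNK kinases, rose by nearly as much. JUN (ENSG00000177606, chromosome 1, 58780788 to 58784327, minus strand) lay at 146.6, 153.2 and 166.3 CPM in the controls and at 206.6, 203.5 and 188.2 CPM with the hairpin. The groups did not overlap, and the lowest hairpin library was 1.13 times the highest control. The log2 change was 0.36 (SE 0.037, edgeR adjusted p = 8.39e-12).

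JUNB, a JUN family member known to restrain JUN in some settings, rose least of the 6. JUNB (ENSG00000171223, chromosome 19, 12791496 to 12793315, plus strand) lay at 113.6, 113.4 and 117.4 CPM in the controls and at 126.2, 131.7 and 131.6 CPM with the hairpin. The groups were separate, and the log2 change was 0.18 (SE 0.037, edgeR adjusted p = 0.000271). JUNB lies within the span of HOOK2 on the other strand and shares 259 of its 1820 exon bases with noncoding HOOK2 transcripts. HOOK2 had 22.8% as many counts as JUNB and rose too (log2 change 0.28, edgeR adjusted p = 0.0119), and its part in the change of JUNB was not tested. JUN and JUND overlap no other gene of the table.

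**Figure D2:**
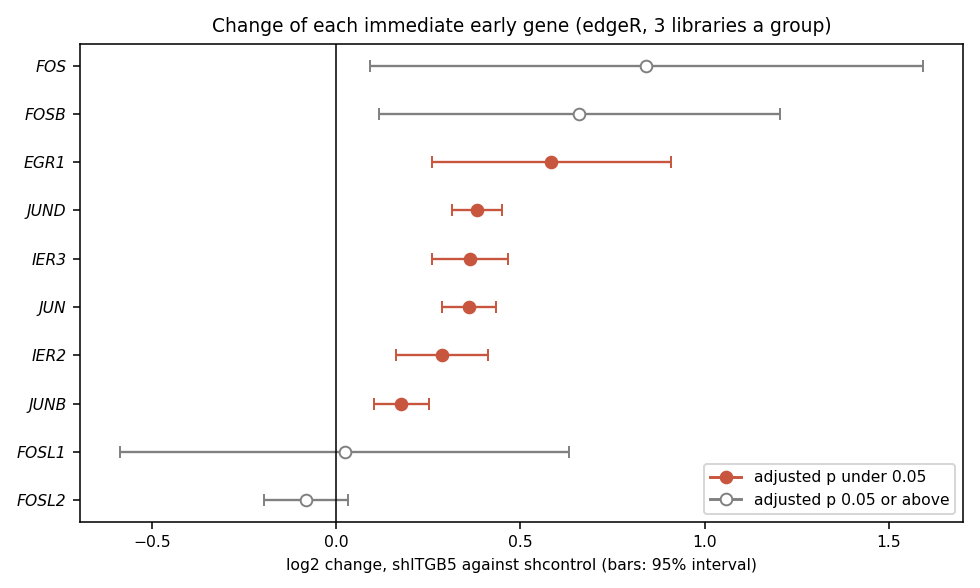
Log2 change of each gene with its 95% interval, shITGB5 against shcontrol (edgeR, 3 libraries a group). Filled points passed the threshold: JUNB, IER2, JUN, IER3, JUND and EGR1. The intervals of FOS, FOSB and FOSL1 are the widest, and that of FOSL2 is narrow and spans 0.

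IER3 rose by 28.7%, close to the 28.5% of JUN. IER3 (ENSG00000137331, chromosome 6, 30743199 to 30744554, minus strand) lay at 50.7, 52.5 and 51.4 CPM in the controls and at 64.6, 69.5 and 65.0 CPM with the hairpin. The lowest hairpin library was 1.23 times the highest control, a wider gap than for JUND. The log2 change was 0.36 (SE 0.051, edgeR adjusted p = 1.28e-07). IER2, a nuclear early-response protein, lay at 39.4, 40.1 and 36.3 CPM in the controls and at 43.7, 47.5 and 50.3 CPM with the hairpin (ENSG00000160888, chromosome 19, 13150415 to 13154908, plus strand). Its groups were separate but closer, with the lowest hairpin library at 1.09 times the highest control, and its log2 change was 0.29 (SE 0.062, edgeR adjusted p = 0.000411).

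EGR1 showed the largest change of the 6, from a low level. EGR1 (ENSG00000120738, chromosome 5, 138465490 to 138469315, plus strand) had 68, 79 and 74 counts in the controls, or 3.90, 4.71 and 4.69 CPM. It had 137, 103 and 106 counts with the hairpin, or 7.63, 6.23 and 6.02 CPM. The hairpin libraries were all above the controls, and replicate 1 was the highest of the hairpin libraries and the lowest of the controls. The log2 change was 0.58 (SE 0.16, edgeR adjusted p = 0.00732). Without shcontrol replicate 1 the log2 change was 0.50 (edgeR adjusted p = 0.0577) and without shITGB5 replicate 1 it was 0.47 (edgeR adjusted p = 0.0806), so that the call was lost in each case. The SD within groups was 0.17 on the log2 scale, against 0.15 from counting error alone.

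No member of the FOS family passed the test. FOSL2, which encodes FRA-2 and was by far its most abundant member, lay at 50.9, 51.8 and 48.2 CPM in the controls and at 48.1, 49.9 and 44.8 CPM with the hairpin (ENSG00000075426, chromosome 2, 28392448 to 28417312, plus strand). The groups overlapped, and the log2 change was -0.08 with a 95% interval of -0.20 to 0.03 (edgeR adjusted p = 0.394). FOSL1, which encodes FRA-1, lay at 1.55, 2.09 and 1.39 CPM in the controls and at 2.23, 1.63 and 1.25 CPM with the hairpin (ENSG00000175592, chromosome 11, 65892049 to 65900573, minus strand). The groups overlapped throughout, and the log2 change was 0.02 with an interval of -0.59 to 0.63 (edgeR adjusted p = 0.975). These libraries are compatible with any change of FOSL1 within that interval.

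FOS and FOSB, the FOS members that respond most sharply to serum, were at the bottom of the measured range. FOS (ENSG00000170345, chromosome 14, 75278774 to 75282230, plus strand) had 24, 15 and 7 counts in the controls and 23, 16 and 47 with the hairpin, or 1.38, 0.895 and 0.443 CPM against 1.28, 0.968 and 2.67 CPM. Only shITGB5 replicate 3 lay above all controls. The log2 change was 0.84 with an interval of 0.09 to 1.59 (edgeR adjusted p = 0.133). This interval, like the others given here, is not adjusted for the number of genes tested, whereas the adjusted p is. The log2 change of FOS was 0.30 without shITGB5 replicate 3, 0.53 without shcontrol replicate 3 and 1.28 without shcontrol replicate 1. Its SD within groups, 0.79 on the log2 scale, was the widest of the 10 and exceeded the 0.36 that counting error gives.

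FOSB (ENSG00000125740, chromosome 19, 45467995 to 45475179, plus strand) had 33, 34 and 16 counts in the controls and 40, 53 and 43 with the hairpin. The hairpin libraries were all above the controls, at 2.23, 3.21 and 2.44 CPM against 1.89, 2.03 and 1.01 CPM, but the change missed the threshold (log2 change 0.66, interval 0.12 to 1.2, edgeR adjusted p = 0.0976). It was 0.41 without shcontrol replicate 3. FOSB lies within the span of ERCC1 on the other strand, which had 18 times as many counts (1803% of those of FOSB), shares no annotated exon base with it and did not pass the test (log2 change 0.03, edgeR adjusted p = 0.845).

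Levels between genes were compared per length, as FPKM (counts scaled by the library total and by the exon length listed for each gene). In the controls JUND led at 93.3 FPKM ± 4.24 (SD, n = 3), followed by JUNB at 63.1 ± 1.25, JUN at 43.9 ± 2.83 and IER3 at 38.0 ± 0.670. IER2 lay at 12.6 FPKM ± 0.667 and FOSL2 at 7.03 ± 0.260. EGR1 lay at 1.41 FPKM ± 0.147, FOSL1 at 0.888 ± 0.193, FOSB at 0.296 ± 0.0992 and FOS at 0.279 ± 0.144. FOSB and FOS, the lowest neighbours in this order, did not differ beyond their spread. The order of the others was the same with the hairpin, where JUND reached 121.7 FPKM ± 5.67 and EGR1 2.11 ± 0.278. FOS (0.506 ± 0.280) and FOSB (0.473 ± 0.0927) again lay within their spread of each other. The highest FOS library of the hairpin group (0.825) also lay above the lowest FOSL1 library of that group (0.662).

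The summed FPKM of the JUN family was 200.3 ± 8.24 in the controls and 249.4 ± 7.82 with the hairpin, 1.24 times as high. That of the FOS family was 8.50 ± 0.621 and 8.53 ± 0.301. JUN family transcripts thus outnumbered FOS family transcripts per length 23.7 ± 2.76 times in the controls and 29.2 ± 0.620 times with the hairpin (SD, n = 3 each). The libraries did not overlap in this ratio, with 21.9 to 26.9 in the controls and 28.5 to 29.6 with the hairpin.

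**Figure D3:**
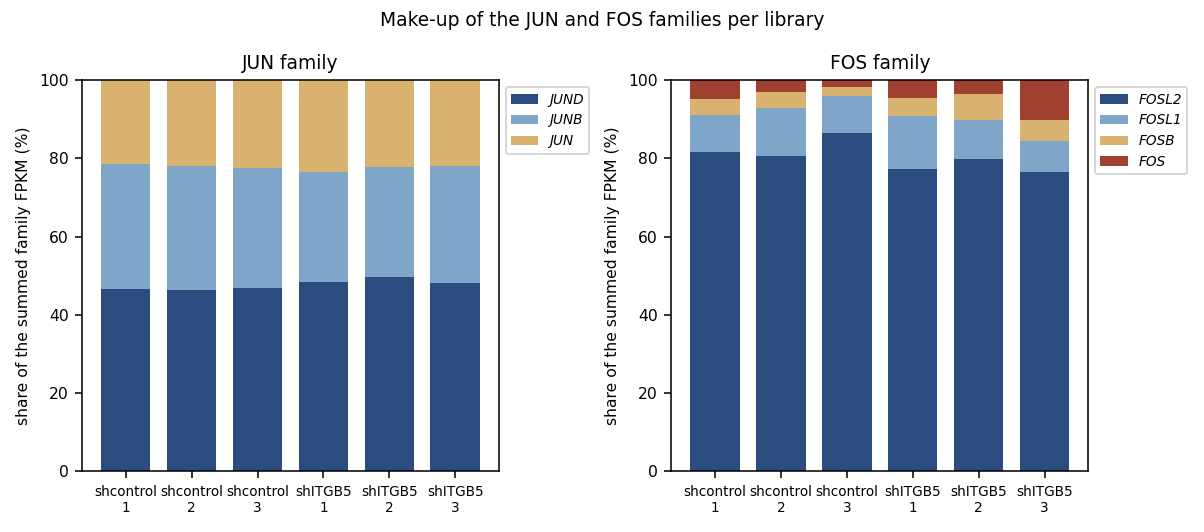
Share of the summed family FPKM held by each member, in percent, for the JUN family (left) and the FOS family (right), with 1 bar a library. JUND held 46.4% to 46.8% of the JUN family in the controls and 48.2% to 49.6% with the hairpin, and FOSL2 held most of the FOS family in every library.

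Every hairpin library had a larger share of JUND and a smaller share of JUNB within the JUN family than every control. JUND held 46.5%, 46.4% and 46.8% of the family FPKM in the controls and 48.5%, 49.6% and 48.2% with the hairpin. JUNB held 32.2%, 31.6% and 30.8% in the controls and 27.9%, 28.1% and 29.8% with the hairpin. Neither pair of groups overlapped, and the differences were 2.20 and -2.89 percentage points (exact permutation test, two-sided, p = 0.1 for each and 0.175 adjusted over the 7 shares, where 0.1 is the smallest p that 3 libraries against 3 can give). The share of JUN was 21.9% ± 0.541 and 22.6% ± 0.828 (exact permutation p = 0.5, adjusted 0.583), and the groups overlapped. Its difference of 0.692 percentage points was 0.405 without shcontrol replicate 1 and 0.225 without shITGB5 replicate 1.

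Within the FOS family FOSL2 held 82.9% ± 3.11 of the FPKM in the controls and 77.9% ± 1.85 with the hairpin (SD, n = 3 each). FOSB held 3.44% ± 0.955 and 5.54% ± 1.02. The groups did not overlap for either (exact permutation p = 0.1, adjusted 0.175). FOS held 3.24% ± 1.57 and 6.02% ± 3.56 (exact permutation p = 0.3, adjusted 0.42), and FOSL1 10.4% ± 1.65 and 10.5% ± 2.78 (exact permutation p = 1, adjusted 1). The FOS difference of 2.78 percentage points was 0.752 without shITGB5 replicate 3 and 1.48 as a share of counts with no length correction. The FOSL2 difference of -5.02 was -3.26 without shcontrol replicate 3. These shares rest on few counts for all members except FOSL2.

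The 3′ ends were read next, since rapid decay through AU-rich elements is a known trait of immediate early transcripts. In the principal GENCODE 29 transcript, the pentamer ATTTA stood 6 times in the 3′ UTR of IER3 and 5 times in that of FOS, or 8.14 and 6.20 times per kilobase. These densities were above those of 98.0% and 94.7% of 12616 tested genes with a 3′ UTR of at least 100 bases, where the median was 1.72. JUNB held 4.0 per kilobase, JUN 2.33, FOSL2 1.85, FOSL1 1.50, JUND 1.47, FOSB 1.39 and EGR1 0.810, while IER2 held none. Genes that rose were thus found at both ends of this range. The densest 30 bases of FOS and IER3 are shown with ATTTA in capitals.
FOS: aaacgttttattgtgtttttaATTTATTTA
IER3: ttgctcctaattaatATTTAtatgtATTTA

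Words of 7 bases in the 3′ UTR that were known from earlier results of these data to go with the changes were also counted. Tested genes whose 3′ UTR holds TCGGAGA or CGGAGAA had a median log2 change of 0.08 for each word, against 0.00 for genes without it. Since the words were picked from these same data, the medians describe that choice and are no support. The words also overlap, since TCGGAGA and CGGAGAA share CGGAGA, and AGACCAA and GACCAAA share GACCAA. The words of a pair are thus not separate findings, and a gene with both may hold a single stretch. IER2 held both words once each, FOSL2 held TCGGAGA and FOSB held CGGAGAA, which stood in 1.80% and 2.02% of 13221 genes. Neither word was found in EGR1, JUN, JUNB, JUND or IER3, which rose. Words that went with lower values, AGACCAA and GACCAAA (median log2 change -0.04 and -0.05), were found in none of the 10 genes.

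The genes that work with or downstream of the 10 were taken as 9 lists of 138 genes in all, of which 130 were measured. Of these, 38 rose (29.2%) and 12 fell (9.23%), beside 8.31% and 6.74% of all genes tested. Each list below is to be read against those last shares. The lists were chosen with earlier results of these data known, so their excess over those shares is a description and not support. Of 12 AP-1 partners and related leucine zipper factors, 3 rose and none fell, with a median log2 change of 0.10. ATF3, a stress-induced partner of JUN, rose from 48.2 to 49.9 CPM in the controls to 64.7 to 68.2 CPM with the hairpin (log2 change 0.43, edgeR adjusted p = 1.07e-09). MAFF, a small MAF protein, rose by 0.36 on the log2 scale (edgeR adjusted p = 0.000352). BATF, a partner of JUN in lymphocytes, rose from 0.516 to 1.43 CPM to 1.56 to 3.18 CPM (log2 change 1.02, edgeR adjusted p = 0.0275). Its call was lost without shcontrol replicate 1 (0.67, edgeR adjusted p = 0.223) or shITGB5 replicate 3 (0.66, edgeR adjusted p = 0.331).

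Of 9 genes of the EGR family, its NAB corepressors and early KLF factors, 7 were measured and 3 rose, all of them KLF genes, with a median of 0.16. KLF4 (0.26), KLF10 (0.21) and KLF6 (0.16), zinc finger factors of the early response, rose on the log2 scale (edgeR adjusted p = 0.0154, 0.00164 and 0.0139). Without shITGB5 replicate 1 or shITGB5 replicate 2 only KLF10 remained. KLF4 also missed the threshold without shcontrol replicate 1 (edgeR adjusted p = 0.0703) and KLF6 without shcontrol replicate 3 (0.0908). NAB2, a corepressor that EGR1 is known to induce, lay at 18.4 to 20.3 CPM in the controls and 19.9 to 21.2 CPM with the hairpin (log2 change 0.10, edgeR adjusted p = 0.55), and was named after its values were seen. EGR3 and EGR4 were below the filter.

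Other immediate early genes moved in both directions. Of 26, 25 were measured, 8 rose and 4 fell, with a median of 0.12. The matricellular genes CYR61 (0.57) and CTGF (0.44), the small GTPase gene RHOB (0.53) and IER5L (0.35), a relative of IER2, rose most on the log2 scale. CYR61 rose from 164.8 to 180.1 CPM in the controls to 252.1 to 256.0 CPM with the hairpin (edgeR adjusted p = 4.77e-22). The 4 that fell, named after their values were seen, were BTG2 (-0.27), SGK1 (-0.26), ID2 (-0.25) and NFKBIZ (-0.13), with BTG2 lost without shcontrol replicate 1 (-0.22, edgeR adjusted p = 0.064).

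Among 14 transcription factors of immediate early promoters, 2 rose (14.3%) and 1 fell (7.14%), with a median of 0.02, which with so few genes lies near the shares among all genes tested. ELK4, a partner of serum response factor, rose by 0.24 and ETS2, an ETS factor, by 0.19, whereas MEF2D, a reader of MEF2 sites, fell by 0.17 on the log2 scale (edgeR adjusted p = 0.00366, 0.00388 and 0.0314). ELK4 was lost without shcontrol replicate 3 (edgeR adjusted p = 0.0545) and ETS2 without shITGB5 replicate 3 (0.0639). MEF2D was lost without any 1 library except shITGB5 replicate 1 (0.0521 to 0.143). Its call was also absent with DESeq2 and with no low-count filter. SRF itself, named after its values were seen, did not pass (0.04, edgeR adjusted p = 0.709). Of 18 kinases and ubiquitin ligases of JUN and FOS, 17 were measured and only RPS6KA3 (5.88% of them), which encodes the ERK-activated kinase RSK2, passed (0.13, edgeR adjusted p = 6.96e-06). Of 8 factors that bind AU-rich elements, 1 rose (12.5%) and 2 fell (25.0%). ZFP36L1, which promotes decay, rose (0.27, edgeR adjusted p = 8.59e-05). ELAVL1, which stabilises such transcripts, and TIA1, which represses their translation, fell (-0.25 and -0.12, edgeR adjusted p = 3.41e-07 and 0.0225). TIA1 was lost without shcontrol replicate 1, shcontrol replicate 2, shITGB5 replicate 1 or shITGB5 replicate 2 (0.0764 to 0.12). With no low-count filter, 1 of the 8 factors fell.

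**Figure D4:**
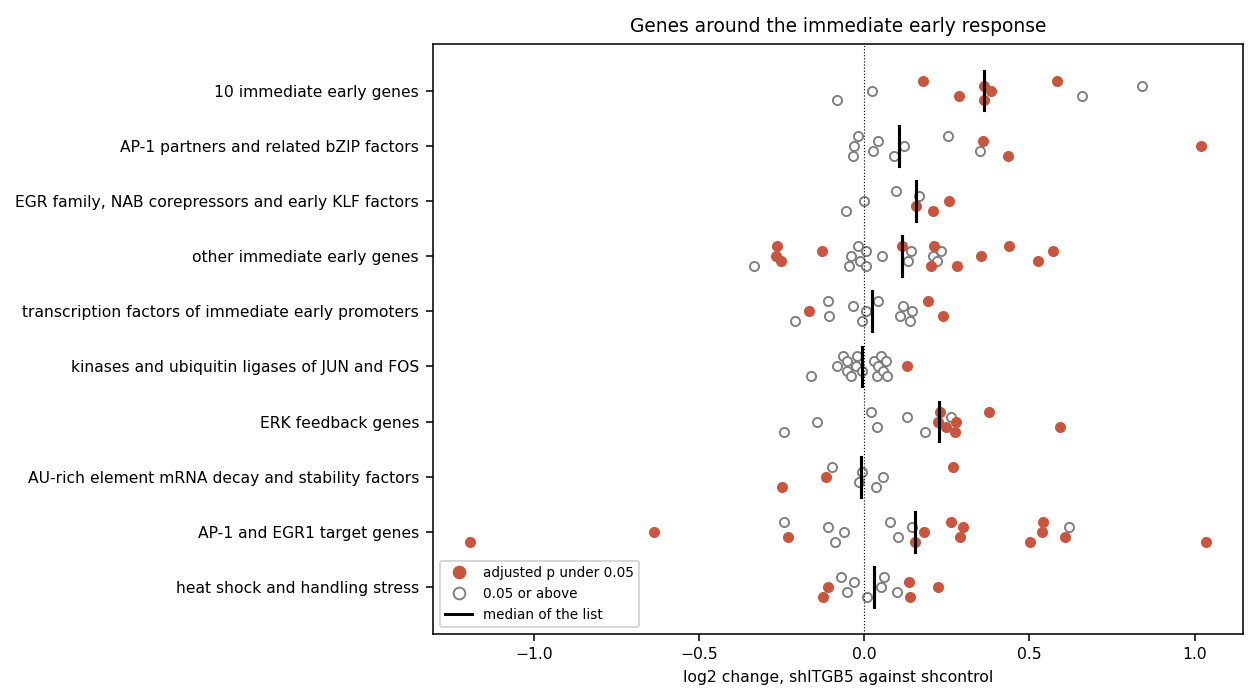
Log2 change of every measured gene of the 9 lists and of the 10 immediate early genes, shITGB5 against shcontrol. Filled points passed the threshold and the black bar is the median of the list. The median is 0.36 for the 10 genes, 0.23 for the ERK feedback genes and -0.01 for the kinases and ubiquitin ligases.

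Of 15 ERK feedback genes, which ERK signalling induces and many of which dampen it, 14 were measured, 7 rose, none fell and 7 did not pass, with a median log2 change of 0.23. The ETS factor genes ETV1 (0.59), ETV5 (0.38) and ETV4 (0.27) and the inhibitor SPRY4 (0.28) led (edgeR adjusted p = 2.00e-08, 0.000879, 0.00236 and 0.00518), and SPRY4 was lost without shcontrol replicate 3 (0.0568). Of 24 genes known as targets of AP-1 or EGR1, 21 were measured, 10 rose and 3 fell, with a median of 0.15. The EGFR ligand genes EREG (1.04) and AREG (0.61) rose. CD44, an adhesion receptor (-1.19), and PLAU, the urokinase gene (-0.64), were among those that fell. CD44 lay at 1.52 to 1.97 CPM in the controls and at 0.557 to 0.909 CPM with the hairpin. It was lost without shcontrol replicate 2 (-1.07, edgeR adjusted p = 0.0907) or shITGB5 replicate 1 (-1.03, edgeR adjusted p = 0.0843).

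Heat shock genes, listed because handling can induce them together with immediate early genes, moved in both directions. Of 12, 3 rose and 2 fell, with a median of 0.03. HSPE1 (0.22), HSPB1 (0.14) and HSPD1 (0.14) rose, and HSP90AA1 (-0.12) and DNAJA1 (-0.11), the latter named after its value was seen, fell. HSPA1A lay at 55.8 to 62.1 CPM in the controls and 57.4 to 63.7 CPM with the hairpin (0.05, edgeR adjusted p = 0.608), also named after its values were seen.

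The pattern over the 6 libraries was compared with that of all other protein-coding genes with a mean of at least 5 CPM, as the root mean square difference of log2 deviations from each gene's own mean. The genes nearest to JUN, among 10892, were TRAF3 (0.020), PREX2 (0.021) and MIDN (0.026). Those nearest to EGR1 were PHACTR2 (0.069), STX12 (0.090) and VOPP1 (0.11). Those nearest to FOSL1, among 10893, were NACAD (0.12), NOSTRIN (0.15) and ZNF695 (0.15). The distances to JUN were below its own SD within groups of 0.083, whereas those to FOSL1 were set against a gene of 22 to 40 counts a library. All were the smallest among these many candidates over only 6 libraries. Their closeness thus comes with the selection and is a description, not a test.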

How the data were processed

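The 6 libraries (3 shITGB5, 3 shcontrol) were prepared for RNA-seq with a kit that keeps strand, per the labels' protocols. Although its name speaks of FPKM, the deposited table has whole numbers, taken here as the authors' raw counts. No aligner, counter or strand setting is given in the sources used here. Positions of all 58735 genes equalled those of GENCODE 29 (GRCh38). Columns coded S were read as the ITGB5 hairpin and NC as the control, which the labels do not spell out. The 10 genes and the lists were chosen with earlier results of these data known.

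Genes were kept by filterByExpr of edgeR 4.0.16 (R 4.3.3), scaled by TMM (factors 0.998 to 1.00) and compared with the quasi-likelihood test, two-sided, with no covariate. The Benjamini-Hochberg adjustment covered all 16577 genes kept (threshold 0.05). At these totals a count of 0 allows up to 0.167 to 0.190 CPM (3 counts), for counting error only. Named genes were the 10, ITGB5, up to 4 passing members of each list by size of change, and the 3 nearest in pattern to EGR1, FOSL1 and JUN. The fit was tested on simulated data. Alternatives used RLE factors, library totals, DESeq2 1.42.0, limma 3.58.1 on log2 CPM (prior count 2), no filter, a 1.2-fold minimum, a replicate block, and each library left out. FPKM shares were also taken as count shares and, chosen after seeing the data, with the length of the principal transcript. The value of 1 gene of the AP-1 and EGR1 target list is not reported here.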

Additional observations from a re-analysis of the deposited data

How the results depend on the processing

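The 6 of 10 genes that rose also rose with RLE factors, library totals, DESeq2, limma, no low-count filter and the replicate block, and none of the 10 fell in any alternative. With 1 library left out, 5 to 6 rose. With a minimum of 1.2-fold, 1 of the 10 rose (JUND), as did 83 of all 16577 genes tested, against 1377 without the minimum. In either direction, 149 of all genes tested passed with the minimum, against 2495. In that fit, 9 list genes rose and 1 fell, against 38 and 12, and ITGB5 no longer passed (log2 change -0.27, edgeR adjusted p = 1). Without 1 library, 1939 to 2183 of all genes tested passed, of which 1079 to 1180 rose. FOSL1 turned to -0.03 without shcontrol replicate 1, -0.09 without shcontrol replicate 3 and -0.22 without shITGB5 replicate 1 (-0.22 to 0.21 over all such fits). Its share of the FOS family changed by -0.0402 percentage points with the principal transcript length, and ranged from -1.38 to 1.35 with 1 library left out. Of 234 counts of single lists over 13 alternatives, 29 moved by more than 1.5 times, 14 of them at the fold minimum. Pairing by replicate number is not stated in the labels. Deviations from the group means had correlations of -0.03, -0.08 and -0.09 between same-numbered libraries across 11504 genes. Between differently numbered libraries they ranged from -0.04 to 0.12. No deviation shared by same-numbered libraries was thus seen, and whether these were handled together was not tested. With the replicate block 2303 genes passed. DESeq2 gave no adjusted p for FOS, FOSB, FOSL1, BATF, CD44 and LIF. FOS, FOSB and FOSL1 had 7 to 53 counts a library, and their spread within groups on the log2 scale (0.79, 0.44 and 0.36) was above that of counting error (0.36, 0.26 and 0.28). The spread was also above counting error for JUN, JUND, IER2 and FOSL2. For JUNB (0.0318 against 0.0317) and IER3 (0.0449 against 0.0460) it was close to counting error.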
